A study of Mus musculus with 2 samples.

Results

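The VPS10 domain receptors are 5 genes, Sorcs1, Sorcs2, Sorcs3, Sort1 and Sorl1, out of 32285 genes counted in nuclei of mouse calf muscle. They were chosen by name, with Sorcs1 at the head because earlier results of these data had shown it far apart between the 2 muscles, so its levels by muscle are a description. Single-nucleus RNA sequencing was done on gastrocnemius and plantaris, both calf muscles, of wild-type C57BL/6 mice aged 12 weeks, with 1 library per muscle. Nuclei came from minced and homogenised muscle, were stained with propidium iodide, a DNA dye, and were sorted before droplet capture with the 10x 3' v3.1 kit. The labels give neither the number nor the sex of the mice, nor whether both muscles came from the same animals, so muscle, animal and library cannot be told apart. Nuclei are not replicates, and no test between muscles or between sets of nuclei was run. Intervals in parentheses are at 95% and cover counting error only.

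VPS10 receptors are membrane proteins that bind cargo through a propeller-shaped domain and carry it between the Golgi, endosomes and the cell surface. Sort1 encodes sortilin, which is known in muscle and fat as a component of the vesicles that store the glucose transporter GLUT4. Sorl1 encodes SORLA, a partner of the retromer coat that returns cargo such as the amyloid precursor protein from endosomes. Sorcs1, Sorcs2 and Sorcs3 encode the SorCS receptors, which are best known from neurons, where they sort neurotrophin receptors, neurexins and glutamate receptors.

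Gastrocnemius held 7374 nuclei with 19048595 unique molecular identifiers (UMIs, each standing for 1 captured RNA molecule) and plantaris 9156 nuclei with 29248275 UMIs, at medians of 2260 and 2714 UMIs per nucleus. Of the barcodes, 17 sequences occurred in both libraries. After filtering, 7372 and 9149 nuclei were analysed, and the doublet caller marked only 2 and 1 nuclei, so doublets may remain. Clusters were named from marker genes, so that "myonuclei" stands for nuclei that resemble them. Myonuclei were then grouped by the most abundant of the myosin heavy chain transcripts Myh4 (type 2B fibres), Myh1 (2X), Myh2 (2A) and Myh7 (type 1), where these 4 genes summed to at least 3 UMIs. "Myh4-led" names the first of these groups. It held 4551 gastrocnemius nuclei with a median of 2941 UMIs and 4181 plantaris nuclei with a median of 3422. Levels are given as CPM, the UMIs of a gene per 1000000 UMIs of the class.

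Sorcs1 spans 535 kb on the minus strand of chromosome 19, chr19:50143299-50678646 in mm10. Sorcs3 lies on the plus strand of the same chromosome, at chr19:48206025-48805505. Sorl1 lies on the minus strand of chromosome 9, chr9:41964720-42124297, Sort1 on the plus strand of chromosome 3, chr3:108284082-108361511, and Sorcs2 on the minus strand of chromosome 5, chr5:36017180-36398139. The promoters of Sorcs1, of its neighbour Sorcs3 and of Sorl1 are shown, as the members with an entry in the promoter table used here. Each window runs from 250 bases before to 50 bases after the annotated start, 5′ to 3′ on the gene's strand, from RefSeq on GRCm38.p6. The windows are chr19:50678597-50678896 for Sorcs1, chr19:48205775-48206074 for Sorcs3 and chr9:42124248-42124547 for Sorl1. Capitals mark matches on either strand to the E-box letters CANNTG, bound by basic helix-loop-helix factors such as MyoD, and to the GC box GGGCGG.
Sorcs1: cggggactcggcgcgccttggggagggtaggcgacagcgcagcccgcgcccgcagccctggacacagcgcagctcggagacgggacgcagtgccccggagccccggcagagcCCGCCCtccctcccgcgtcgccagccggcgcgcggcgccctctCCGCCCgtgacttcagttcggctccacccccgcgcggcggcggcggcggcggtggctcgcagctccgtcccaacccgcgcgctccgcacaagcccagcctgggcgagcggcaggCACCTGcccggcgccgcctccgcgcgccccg
Sorcs3: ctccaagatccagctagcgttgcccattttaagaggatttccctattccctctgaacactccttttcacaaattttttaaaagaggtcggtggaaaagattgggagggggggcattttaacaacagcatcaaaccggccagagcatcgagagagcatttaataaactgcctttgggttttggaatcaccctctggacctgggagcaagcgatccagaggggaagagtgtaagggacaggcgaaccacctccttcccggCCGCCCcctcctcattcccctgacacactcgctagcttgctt
Sorl1: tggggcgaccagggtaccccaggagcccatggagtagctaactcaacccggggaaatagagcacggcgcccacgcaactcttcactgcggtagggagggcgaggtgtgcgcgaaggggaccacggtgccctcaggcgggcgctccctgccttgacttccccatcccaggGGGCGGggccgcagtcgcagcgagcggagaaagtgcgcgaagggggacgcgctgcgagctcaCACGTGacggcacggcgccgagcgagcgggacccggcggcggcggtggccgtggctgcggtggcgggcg
The Sorcs1 window was 80.7% G or C, the Sorl1 window 72.3% and the Sorcs3 window 51%, against a median of 52.7% over 32851 promoters. Sorcs1 and Sorl1 each held 1 match to CANNTG and Sorcs3 held 0, while 72.3% of all promoters held 1 or more. The Sorcs1 match began at base 270 of the window, after the start site, and the Sorl1 match at base 232, before it. Sorcs1 held 2 matches to GGGCGG and the others 1 each, and 35.7% of all promoters held it. The letters CATTCC, bound by TEAD factors, occurred once in Sorcs3 and in 14.7% of promoters, and AAGGTCA, the core bound by estrogen-related receptors, was in none of the 3 windows and in 4.72% of promoters. No matched motifs overlapped. These matches describe letters and say nothing of whether a factor binds.

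In Myh4-led nuclei, Sort1 and Sorl1 were seen in both muscles, Sorcs1 mainly in gastrocnemius, and Sorcs2 and Sorcs3 at low levels. Sorcs1 stood at 205 CPM (198 to 213) in gastrocnemius and 2.97 CPM (2.18 to 3.95) in plantaris, from 2895 and 47 UMIs, and the log2 ratio was 6.11 (5.69 to 6.56). Sort1 stood at 342 CPM (332 to 351) in gastrocnemius and 226 (219 to 234) in plantaris, with the log2 ratio at 0.59 (0.53 to 0.66). Sorl1 ran the other way, at 69.7 CPM (65.4 to 74.2) in gastrocnemius and 144 (138 to 150) in plantaris, with the log2 ratio at -1.04 (-1.15 to -0.94). Sorcs2 had 6.87 CPM in gastrocnemius and 9.55 in plantaris, or -0.47 on the log2 scale (-0.86 to -0.10). Sorcs3 had 7 and 5 UMIs in all. The median gene stood at -0.20 on this scale, and with libraries scaled to put it at 0 the ratios were 6.30 for Sorcs1, 0.79 for Sort1, -0.85 for Sorl1 and -0.28 for Sorcs2. One member, Sorcs1, was past 2-fold higher in gastrocnemius, as were 1.57% of the 10768 genes with 50 or more UMIs, and 1 member, Sorl1, was past 2-fold lower, as were 7%, so that 8.57% of genes were past 2-fold either way. Over all myonuclei, at log2 ratios of 6.12 (5.75 to 6.51) and -1.05 (-1.15 to -0.95), the same 2 members passed, 1 each way, beside 1.71% of 11272 genes higher and 7.51% lower, 9.23% in either direction. Since Sorcs1 was picked for this contrast, these shares are given for scale only.

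Levels of different genes are compared per length of gene, whose fit to these counts depends on how intronic reads were counted, which the sources used here do not state. In Myh4-led gastrocnemius nuclei, the order was 441 CPM per 100 kb of gene for Sort1, 43.7 for Sorl1, 38.3 for Sorcs1, 1.80 for Sorcs2 and 0.0827 for Sorcs3. In Myh4-led plantaris nuclei it was 292 for Sort1, 90.0 for Sorl1, 2.51 for Sorcs2, 0.555 for Sorcs1 and 0.0527 for Sorcs3. In gastrocnemius, Sorcs1 thus lay below Sorl1 per length, whereas its CPM undivided by length was the higher of the pair, and in plantaris it lay below Sorcs2 on both scales.

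**Figure D1:**
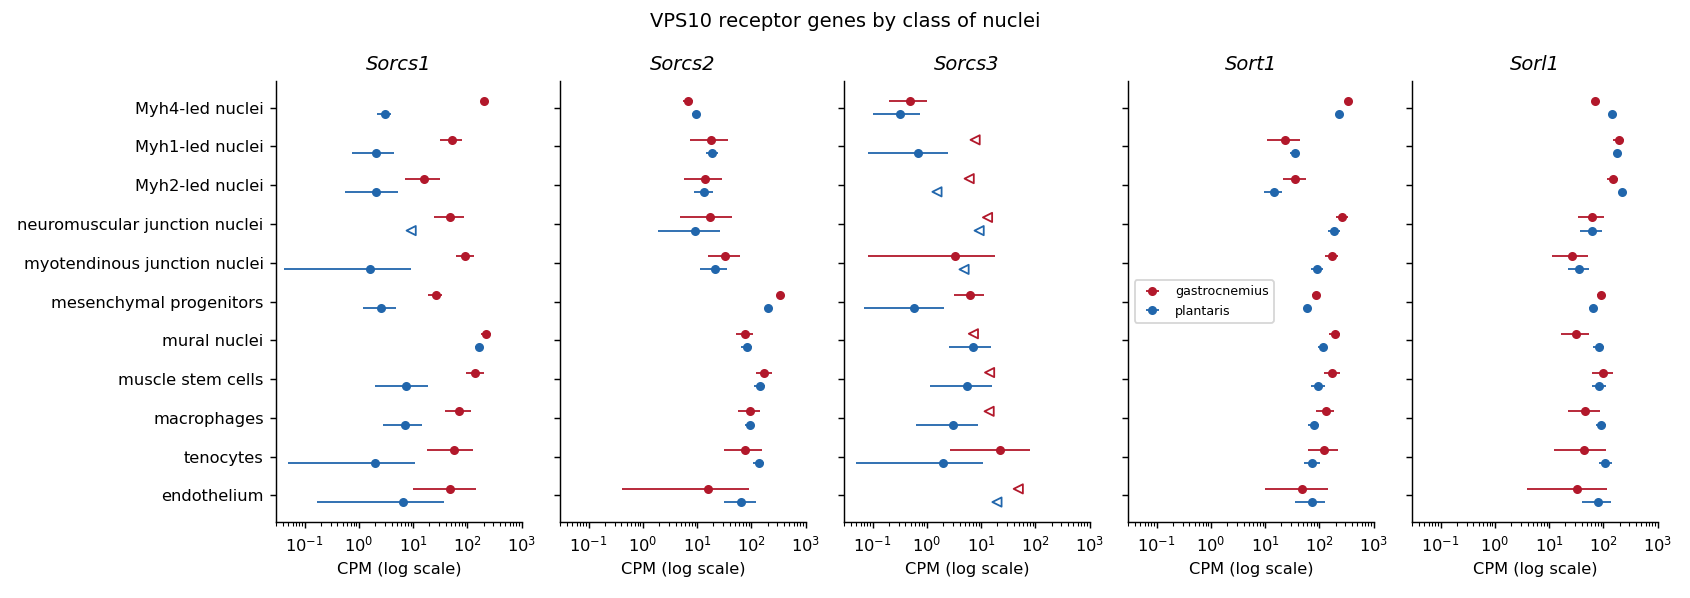
Level of each VPS10 receptor gene in CPM (log axis) by class of nuclei, gastrocnemius in red above plantaris in blue, with exact Poisson 95% intervals and open triangles at the level of 3 counts for a class with 0 UMIs. Sorcs1 lies apart between the muscles in Myh4-led nuclei (205 against 2.97 CPM) and close together in mural nuclei (218 against 163 CPM), Sort1 is high in Myh4-led nuclei, and Sorcs2 is high in mesenchymal progenitors.

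Across fibre types, Sort1 went with Myh4 in both muscles and Sorl1 was higher where Myh1 or Myh2 led. In gastrocnemius, Sort1 stood at 342 CPM in Myh4-led, 23.2 CPM in Myh1-led and 36.1 CPM in Myh2-led nuclei. In plantaris it stood at 226, 35.5 and 14.3 CPM in the same order. The log2 ratios of Myh4-led over Myh1-led nuclei were 3.88 (2.95 to 5.01) in gastrocnemius and 2.67 (2.39 to 2.97) in plantaris, and those of Myh4-led over Myh2-led nuclei were 3.24 (2.58 to 3.997) and 3.98 (3.45 to 4.57). Sorl1 stood at 69.7, 191 and 148 CPM in Myh4-led, Myh1-led and Myh2-led nuclei of gastrocnemius, and at 144, 177 and 218 CPM in those of plantaris. Its log2 ratios of Myh4-led over Myh1-led nuclei were -1.45 (-1.80 to -1.09) in gastrocnemius and -0.30 (-0.44 to -0.16) in plantaris, and of Myh4-led over Myh2-led nuclei -1.09 (-1.43 to -0.73) and -0.60 (-0.75 to -0.45).

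Sorcs1 was also highest in Myh4-led nuclei of gastrocnemius, with 205 CPM in Myh4-led, 51.6 CPM (31.5 to 79.7) in Myh1-led and 16.1 CPM (6.93 to 31.6) in Myh2-led nuclei. The Myh1-led value rests on 20 UMIs, 8 of them in 1 nucleus, and the Myh2-led value on 8 UMIs. In plantaris the values were 2.97, 2.07 and 2.04 CPM, which do not differ beyond counting error, since the log2 ratio of Myh4-led over Myh1-led nuclei was 0.52 (-0.70 to 2.04). Sorcs2 stood at 6.87 CPM in Myh4-led, 18.1 in Myh1-led and 14.0 in Myh2-led gastrocnemius nuclei, the last pair from 7 UMIs each. Myh7-led nuclei numbered 22 in gastrocnemius and 6 in plantaris and held 0 Sorcs1 UMIs, and 3 nuclei of the total, the limit that a count of 0 allows, is a share with a Sorcs1 UMI of up to 13.6% and 50%.

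Among genes with 50 or more UMIs, 2 members, Sorcs1 and Sort1, were past 2-fold higher in Myh4-led than in Myh1-led gastrocnemius nuclei, as were 11.9% of all genes, and 2, Sorcs2 and Sorl1, were past 2-fold lower, as were 11%. Against Myh2-led nuclei the same members passed in each direction, beside 12.8% of genes higher and 14.2% lower. The log2 ratio of Sorcs2 was -1.39 (-2.49 to -0.04) against Myh1-led and -1.03 (-2.13 to 0.32) against Myh2-led nuclei. The last interval includes 0. In plantaris, Sort1 was past 2-fold higher against Myh1-led nuclei, beside 7.17% of genes, and against Myh2-led nuclei, beside 11.7%, and 0 members were past 2-fold lower, beside 4.43% and 7.45%. Splitting the plantaris myonuclei with 10 or more Myh UMIs by the share from Myh4 showed Sort1 at 21.7, 62.2, 76.6, 155 and 234 CPM in bins of 0 to 20, 20 to 40, 40 to 60, 60 to 80 and 80 to 100%. The bins held 816, 93, 93, 59 and 2907 nuclei. Sorl1 had 193, 148, 163, 179 and 141 CPM in these bins and no such order. In gastrocnemius the bins between 20 and 80% held 23, 18 and 10 nuclei, too few to show one.

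Over 23 profiles of class by library with 100000 or more UMIs, the genes most like Sort1 by Pearson's r of log2(CPM + 1) were Myh4 (r = 0.95), Pvalb (0.93), Actn3 (0.92), Stim2 (0.89) and Amd1 (0.89). Pvalb encodes the calcium buffer parvalbumin and Actn3 the fast-fibre alpha-actinin. Sorcs2 was most like Tmeff2, Gria3, Dclk1, Dennd2a and Arhgap24, all at 0.95 to 0.96. Sorcs1 was most like Mical2 (0.87), Mybph (0.79), Meis1, Pdp1 and Enox2 (0.75, 0.74 and 0.74), and Sorl1 most like Cox6a1 (0.88), Ell (0.87), Gm45012, Adk and Alpl (0.86 each). The profiles share 2 libraries, and junction nuclei also count in the Myh groups, so these r describe these profiles only. Some profiles are groups drawn by their leading Myh transcript, so the place of Myh4 in this order is partly built in. Sorcs3, with 67 UMIs in all, was too sparse to be ranked.

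Outside myonuclei, Sorcs1 was seen in mural nuclei of both muscles. The mural cluster carries markers of pericytes and of smooth muscle, the contractile cells around vessels. Sorcs1 stood there at 218 CPM (176 to 268) in gastrocnemius and 163 CPM (137 to 192) in plantaris, and 26.2% (20.3 to 32.9) of 202 and 26.8% (21.8 to 32.3) of 291 nuclei held a Sorcs1 UMI. Split by marker UMIs, nuclei with more pericyte than smooth muscle markers had 235 CPM (188 to 291) in gastrocnemius and 176 CPM (147 to 209) in plantaris, and those with more smooth muscle markers 105 CPM (34.2 to 246) and 90.8 CPM (43.5 to 167), from 16 and 38 nuclei. The log2 ratio of myonuclei over mural nuclei was -0.18 (-0.48 to 0.13) in gastrocnemius, an interval that includes 0, and -5.88 (-6.34 to -5.43) in plantaris.

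The other non-muscle classes, apart from muscle stem cells, had less Sorcs1 than myonuclei in gastrocnemius. Myonuclei of gastrocnemius had 192 CPM, against 67.6 CPM in its 7 named non-muscle classes together, a log2 ratio of myonuclei over non-muscle nuclei of 1.51 (1.30 to 1.73). Without mural nuclei, which were left out after the values were seen, the non-muscle level was 41.4 CPM and the ratio 2.22 (1.93 to 2.52). Mesenchymal progenitors, the fibroblast-like cells between fibres, had 25.9 CPM (18.98 to 34.6) in gastrocnemius and 2.59 CPM (1.19 to 4.92) in plantaris. RNA set free from broken fibres can give UMIs in nuclei that do not express a gene, and Myh4 UMIs are given as a gauge of it. Per 1000 Myh4 UMIs, Sorcs1 had 43.8 in Myh4-led nuclei of gastrocnemius, against 23.7 in mesenchymal progenitors, 30.4 in macrophages, 27.9 in tenocytes, 37.0 in endothelium and 101 in mural nuclei. In plantaris it had 0.786 in Myh4-led nuclei, against 2.96 in mesenchymal progenitors, 4.36 in macrophages, 1.51 in tenocytes, 3.30 in endothelium and 118 in mural nuclei, the tenocyte and endothelial values from 1 UMI each. What part free RNA had in these Sorcs1 UMIs was not tested.

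Muscle stem cells of gastrocnemius had 138 CPM of Sorcs1, with myonuclei over them at a log2 ratio of 0.47 (-0.05 to 1.06), and 70.6 UMIs per 1000 Myh4 UMIs, but 21 of their 29 UMIs lay in 2 of 137 nuclei, 15 of them in 1. Those of plantaris had 7.36 CPM, from 4 UMIs. The nucleus with the most Sorcs1 held 66 UMIs and fell in cluster 7 of gastrocnemius, which stayed unnamed and had a median of 1003 UMIs there. Unnamed cluster 18, led by Tenm2, Hcn4, Itgb4, Luzp2 and Grin2b, held 22 of all 67 Sorcs3 UMIs, with 309 CPM (154 to 553) in 18 gastrocnemius nuclei and 94.0 CPM (46.9 to 168) in 40 plantaris nuclei. The same cluster had 141 CPM of Sorcs1 in gastrocnemius, all 5 UMIs in 1 nucleus, and 239 CPM in plantaris, 28 UMIs in 6 nuclei.

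Among the named classes, Sorcs2 was highest in mesenchymal progenitors. It stood there at 330.2 CPM (304 to 358) in gastrocnemius and 200.5 CPM (186 to 216) in plantaris, against 7.60 and 11.6 CPM in myonuclei. Unnamed cluster 18 had 337 CPM (174 to 589) in gastrocnemius and 291 CPM (201 to 406) in plantaris. Within the mesenchymal progenitors, cluster 2, led by Pde11a, Kcnb2, Spon1 and Bmper, had 469.5 CPM of Sorcs2 in gastrocnemius and 312 CPM in plantaris. Cluster 8, led by Dact2 and Adamts16, had 48.3 and 37.8 CPM. Sorl1 was also higher in cluster 2, with 129 and 77.2 CPM, than in cluster 8, with 17.4 CPM (9 UMIs) and 39.7 CPM (42 UMIs). Gastrocnemius was thus the higher muscle for Sorl1 in cluster 2 and the lower in cluster 8. Sort1 was closer between them, with 91.8 and 61.1 CPM in cluster 2 and 81.2 and 67.2 CPM in cluster 8. Muscle stem cells had 172 and 144 CPM of Sorcs2. Adipocytes, at 28 and 13 nuclei, had 276 CPM (143 to 482) and 306 CPM (147 to 562) of Sort1. Per 1000 Myh4 UMIs in gastrocnemius, Sort1 had 72.9 in Myh4-led nuclei, 78.5 in mesenchymal progenitors, 88.8 in mural nuclei and 87.6 in muscle stem cells. Macrophages had 56.8, tenocytes 61.5, endothelium 37.0 and adipocytes 279. What part free RNA had in these Sort1 UMIs was not tested.

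The share of Myh4-led nuclei with a Sorcs1 UMI was 12.2% (11.3 to 13.2) in gastrocnemius and 0.454% (0.274 to 0.709) in plantaris. With every nucleus thinned to 1000 UMIs, which left out 127 and 45 shallower nuclei, the shares were 8.18% (7.39 to 9.03) and 0.145% (0.0533 to 0.315). Mesenchymal progenitors thinned the same way gave 1.82% (1.02 to 2.98) and 0.288% (0.0784 to 0.735). Before thinning their shares were 3.29% and 0.445%, at median depths of 1288 and 1490 UMIs. After thinning, the Myh4-led share was thus above that of mesenchymal progenitors in gastrocnemius and was not in plantaris. The progenitor shares themselves stood apart between the muscles, and the part of free RNA in them was not tested.

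**Figure D2:**
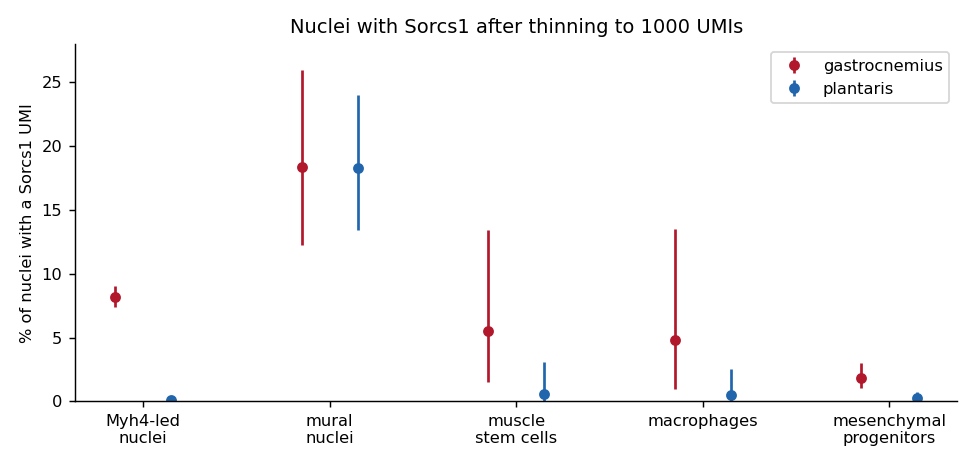
Percent of nuclei with 1 or more Sorcs1 UMI after each nucleus was thinned to 1000 UMIs, by class, gastrocnemius in red left of plantaris in blue, with exact Clopper-Pearson 95% intervals. Myh4-led nuclei reach 8.18% in gastrocnemius and 0.145% in plantaris, and mural nuclei about 18% in both (18.4% and 18.3%).

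Within Myh4-led gastrocnemius nuclei, Sorcs1 was not spread evenly. Of 4551 nuclei, 3996 held 0 Sorcs1 UMIs, where an even rate per UMI of depth would leave 2519 at 0. There were 216 nuclei with 1 UMI, 112 with 2 to 3 and 227 with 4 or more, up to 36. The 227 nuclei are 4.99% of the group and held 83.4% of its Sorcs1 UMIs. Sort1 and Sorl1 were nearer to an even spread, with 47.3% of nuclei at 0 for Sort1 against 38.9% at an even rate, and 81.8% for Sorl1 against 81.0%. The 5% of nuclei with the most UMIs of the gene held 83.5% of Sorcs1 UMIs, 24.6% of Sort1 UMIs and 39.0% of Sorl1 UMIs. In plantaris, 2 Myh4-led nuclei with 12 and 17 UMIs held 29 of the 47 Sorcs1 UMIs, 16 nuclei held 1 and 1 nucleus held 2.

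**Figure D3:**
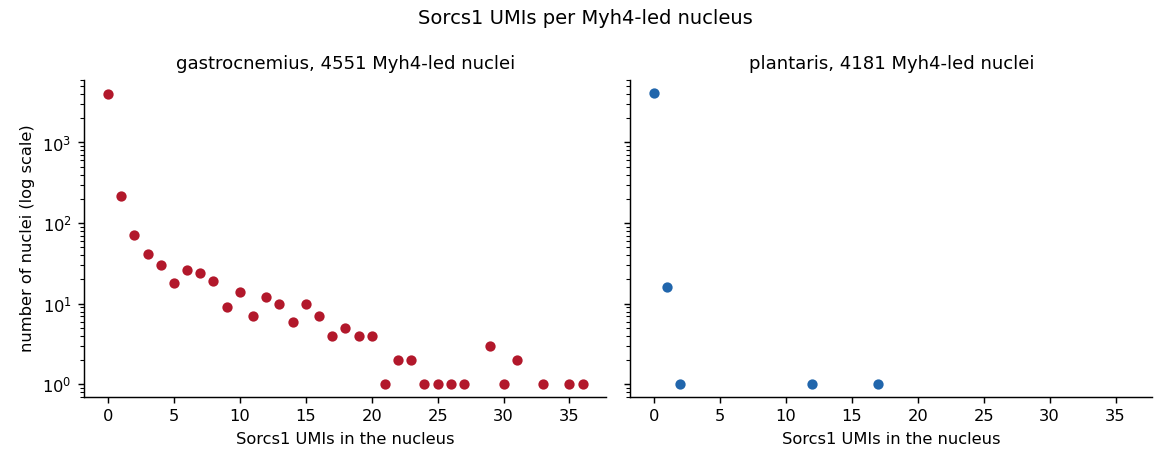
Number of Myh4-led nuclei (log axis) by Sorcs1 UMIs in the nucleus, gastrocnemius at left and plantaris at right, each point 1 count of UMIs. In gastrocnemius 227 nuclei reach 4 or more UMIs and the highest holds 36, and in plantaris 2 nuclei reach 4 or more.

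The nuclei with Sorcs1 lay mostly in 1 cluster. Cluster 3 held 429 of the 555 Sorcs1-positive and 219 of the 227 nuclei with 4 or more UMIs, and 92.99% of the Sorcs1 UMIs of Myh4-led gastrocnemius nuclei. Clusters 3 and 0 were the main Myh4-led clusters of gastrocnemius, with 1588 and 1887 such nuclei, and had 506 and 14.5 CPM of Sorcs1. Sorcs1 was itself among the genes clustered and led cluster 3, so this describes the cluster and is no test of it. Even in cluster 3, 27.0% of Myh4-led nuclei held a Sorcs1 UMI, and 1182 of its 1621 gastrocnemius nuclei held 0, where an even rate would leave 391.

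To ask what separates Sorcs1-positive from Sorcs1-negative nuclei, each Myh4-led gastrocnemius nucleus with 1 or more Sorcs1 UMI was matched to a nucleus with 0 and a total within 10%. This gave 554 nuclei a side at medians of 3362 and 3358.5 UMIs. Of the 555 Sorcs1-positive nuclei before matching, 216 held 1 Sorcs1 UMI, and what part free RNA had in these was not tested. Cluster 3 held 77.4% of the matched Sorcs1-positive and 29.2% of the matched Sorcs1-negative nuclei. Sorcs1-positive nuclei had more RNA of the Golgi mannosidase Man1a, the matrix protein Smoc2, the integrin subunit Itga4 and the catenin Ctnna3, and less of the oxidative regulator Esrrg, the Z-disc protein Actn2 and the lipase Lpl. Of 5600 genes with 50 or more UMIs, 42 were past 2-fold higher (0.75%) and 22 past 2-fold lower (0.393%) in Sorcs1-positive nuclei, 1.14% in all. Of the other receptors only Sort1 and Sorl1 had 50 or more UMIs, and neither was past 2-fold. The whole interval lay past 2-fold for 9 genes higher and 0 lower. The nuclei were split on Sorcs1 and are not replicates, so these values carry no test.

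Man1a, which trims N-glycans in the Golgi, had 182 CPM in Sorcs1-positive nuclei and 30.9 CPM in Sorcs1-negative nuclei, a log2 ratio of 2.56 (2.15 to 2.98). Naaladl2 had 179 and 48.7 CPM, a log2 ratio of 1.88 (1.54 to 2.23). Smoc2, a calcium-binding matricellular protein, had 394 and 131 CPM, a log2 ratio of 1.58 (1.38 to 1.80), and Itga4 had 134 and 43.9 CPM, a log2 ratio of 1.61 (1.25 to 1.98). The most abundant was Ctnna3, which encodes alpha-T-catenin of cell junctions, at 6164 and 2638 CPM, a log2 ratio of 1.22 (1.18 to 1.27). The others furthest up were Pld5 at 1.54, Lrrtm3 at 1.36, Kcnab1, a potassium channel beta subunit, at 1.19, Lrrc8c, a subunit of volume-regulated anion channels, at 1.94, Neto2, an auxiliary subunit of kainate receptors, at 1.39, and Auts2 at 1.07 on the log2 scale. Lrrtm3 lies inside Ctnna3 on the opposite strand, and since the counting by strand is not given in the sources used here, reads of the pair cannot be told apart.

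Among the genes furthest down, Esrrg, which encodes an estrogen-related receptor that drives genes of oxidative metabolism, had 302 CPM in Sorcs1-positive and 668 CPM in Sorcs1-negative nuclei, a log2 ratio of -1.14 (-1.29 to -0.9997). Actn2 had 189.9 and 375 CPM, a log2 ratio of -0.98 (-1.17 to -0.80), and the potassium channel gene Kcnq5 had 337 and 602 CPM, a log2 ratio of -0.84 (-0.98 to -0.70). Nrp1, a co-receptor for VEGF and semaphorins, had 8.37 and 28.3 CPM, from 16 and 54 UMIs, a log2 ratio of -1.75 (-2.66 to -0.93). Lpl, which frees fatty acids from lipoproteins, had 11.0 and 30.9 CPM, from 21 and 59 UMIs, a log2 ratio of -1.49 (-2.28 to -0.75). The others were Cdon at -1.36, Ptpn3 at -1.18, Maml2, a Notch coactivator, at -1.06, 2310016D03Rik at -0.91, Agbl1 at -0.77 and Ank2, which encodes ankyrin-B, at -0.77.

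**Figure D4:**
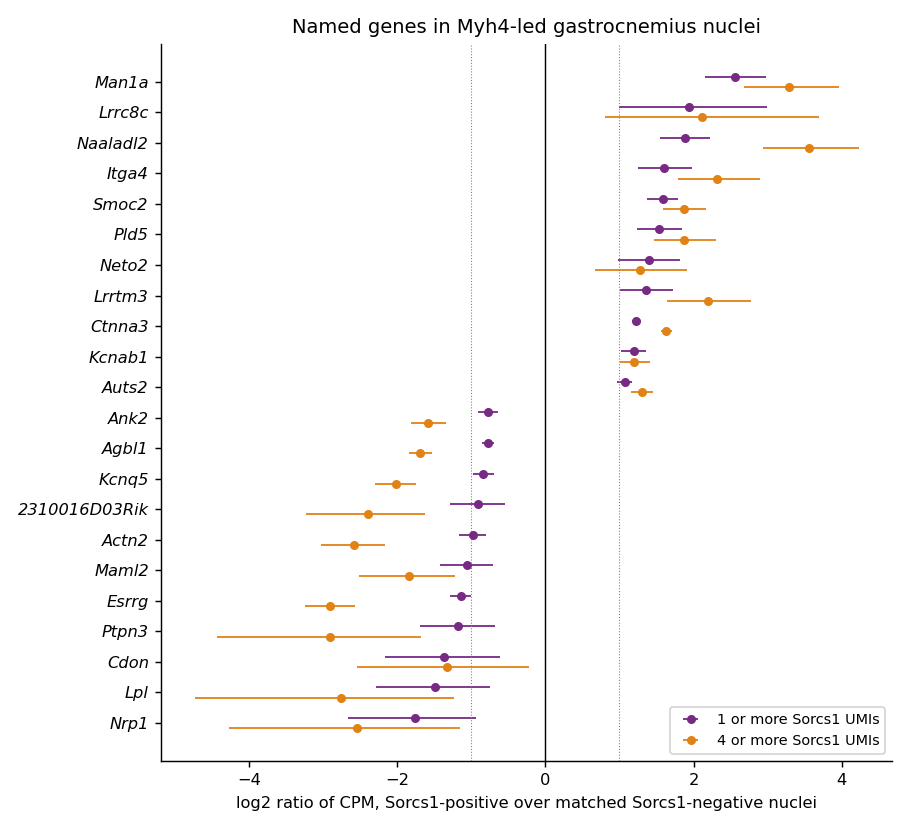
Log2 ratio of CPM, Sorcs1-positive over depth-matched Sorcs1-negative Myh4-led gastrocnemius nuclei, for 22 of the genes furthest apart, with 1 or more (purple) and 4 or more (orange) Sorcs1 UMIs as the rule for positive, exact 95% intervals for counting error and dotted lines at 2-fold. Naaladl2 moves from 1.88 to 3.55 and Esrrg from -1.14 to -2.90 between the rules.

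With a stricter rule for positive, all of the 22 named genes but Neto2 and Cdon stood further apart, Kcnab1 only from 1.19 to 1.20. By that rule Lrrc8c (26 and 6 UMIs), Nrp1 (5 and 29), Lpl (4 and 27) and Cdon (10 and 25) fell under the filter of 50 UMIs. With 4 or more UMIs as the rule, chosen after the data were seen, 226 nuclei a side were compared at medians of 3875.5 and 3863.5 UMIs. Cluster 3 held 96.9% of these Sorcs1-positive and 28.3% of these Sorcs1-negative nuclei. Of 3829 genes, 57 were past 2-fold higher (1.49%) and 50 past 2-fold lower (1.31%), 2.79% in all. Naaladl2 then had 302 CPM in Sorcs1-positive and 25.8 CPM in Sorcs1-negative nuclei, a log2 ratio of 3.55 (2.94 to 4.24), Man1a a ratio of 3.29 (2.68 to 3.96) and Itga4 one of 2.32 (1.78 to 2.90). Mybpc1, which encodes the slow form of myosin-binding protein C, had 25.8 CPM in Sorcs1-positive and 395 CPM in Sorcs1-negative nuclei, from 23 and 353 UMIs, a log2 ratio of -3.94 (-4.62 to -3.33). Esrrg stood at -2.90 (-3.25 to -2.57) and Actn2 at -2.58 (-3.02 to -2.17). Tafa4 and Ncam1 had 1 and 3 UMIs in Sorcs1-positive nuclei, against 52 and 67 UMIs in Sorcs1-negative nuclei. Col19a1 stood at -3.70 (5 and 65 UMIs), Phldb2 at -3.75 (4 and 54) and Hs6st2 at -2.78 (8 and 55). These genes, Tafa4 and Ncam1 reached the filter of 50 UMIs through Sorcs1-negative nuclei alone. With 1 or more UMIs as the rule, Tafa4 stood on the other side, at 0.45 (0.01 to 0.89), and Phldb2 at 0.25 (-0.21 to 0.71). Tafa4 and Hs6st2 are among the leading genes of the cluster with neuromuscular junction markers. In that cluster lay 86 Myh4-led gastrocnemius nuclei, 1 of them with 4 or more Sorcs1 UMIs. What part junction nuclei had in the ratios with 4 or more UMIs as the rule was not tested. Adamtsl1, Slc4a10 and Macrod2 were among the furthest up by this rule, at 1.55, 1.59 and 1.12.

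By number of Sorcs1 UMIs, Esrrg, Actn2 and Mybpc1 were lower in nuclei with 2 or more UMIs and not in those with 1. Esrrg had 613, 640, 152 and 120 CPM in nuclei with 0, 1, 2 to 3 and 4 or more Sorcs1 UMIs. Actn2 had 386, 387, 121 and 71.8 CPM, and Mybpc1 had 378, 556, 112 and 44.6 CPM. Naaladl2 had 49.4, 35.9, 146 and 294 CPM. These classes had median depths of 2882.5, 3083, 2737.5 and 3880 UMIs, and the part of depth in these values was not tested.

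**Figure D5:**
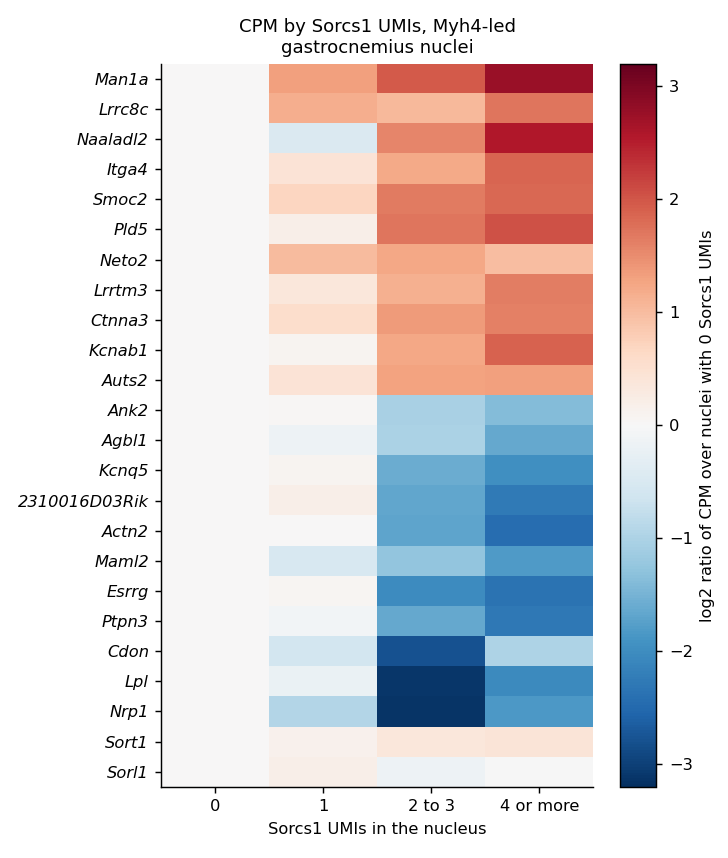
Log2 ratio of CPM over nuclei with 0 Sorcs1 UMIs (colour) for the 22 named genes and for Sort1 and Sorl1, in Myh4-led gastrocnemius nuclei with 0, 1, 2 to 3 and 4 or more Sorcs1 UMIs. Esrrg stands at 0.06, -2.01 and -2.36 and Man1a at 1.32, 1.96 and 2.77 in the last 3 classes.

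The other receptors lay closer between these nuclei. Sort1 had 414 CPM in Sorcs1-positive and 330.2 CPM in Sorcs1-negative nuclei, a log2 ratio of 0.33 (0.18 to 0.48), and the same 0.33 (0.11 to 0.54) with 4 or more UMIs. Sorl1 had 71.7 and 64.9 CPM, a log2 ratio of 0.14 (-0.22 to 0.51). Sorcs2 had 14 UMIs on each side and Sorcs3 2 and 1, too few to compare.

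In the pathway of these receptors, 6 of 28 listed ligands and co-receptors had 50 or more UMIs, 2 above and 4 below 0, with a median log2 ratio of -0.18 against -0.01 over all 5600 genes. Lpl, a sortilin ligand, was past 2-fold lower, as were 0.393% of all genes, and the insulin-like growth factor receptor gene Igf1r stood at 0.26 (0.11 to 0.40). Of 27 adaptors, retromer subunits and sheddases, 17 were measured, 10 above and 7 below 0, none past 2-fold, with a median of 0.04. Among them the sheddase gene Adam10 stood at 0.30 (0.01 to 0.60) and the sorting nexin gene Snx5 at 0.43 (66 against 49 UMIs). Of 19 GLUT4 vesicle and insulin signalling genes, 13 were measured, 5 above and 8 below 0, none past 2-fold, median -0.05. Pik3r1, a regulatory subunit of PI3-kinase, stood furthest at -0.90 (-1.37 to -0.45), Rac1 at 0.56 (0.13 to 0.99) and Tbc1d1 at -0.34 (-0.44 to -0.23).

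Of the lists of slow and oxidative genes, most measured members had ratios below 0, some with intervals that include 0, among nuclei that Myh4 led in all cases. Myh4 gave 99.1% of Myh UMIs in Sorcs1-positive and 99.0% in Sorcs1-negative nuclei. Of 27 oxidative genes, 19 were measured, 4 above and 15 below 0, 2 past 2-fold lower, Esrrg and Lpl, median -0.24. Over all 5600 genes 2598 lay above and 3002 below 0, and 0.393% were past 2-fold lower. With 4 or more Sorcs1 UMIs as the rule, 17 oxidative genes were measured, 3 above and 14 below 0, 2 past 2-fold lower beside 1.31% of all genes, with a median of -0.54 against -0.01 over all genes. These 2 were Esrrg at -2.90 and Cd36, a fatty acid transporter, at -1.36, from 39 and 100 UMIs. With 1 or more UMIs as the rule, Cd36 stood at -0.67, from 126 and 200 UMIs. By the same rule Acadm, a dehydrogenase of fatty acid oxidation, stood at -0.69 (-1.21 to -0.18). Of 17 slow and oxidative sarcomere genes only Actn2, Myh2 and Mybpc1 were measured, all below 0, at -0.98, -0.73 and -0.69, and the interval for Myh2 (-1.49 to 0.01) includes 0. With 4 or more UMIs as the rule only Actn2 and Mybpc1 were measured, both past 2-fold lower, at -2.58 and -3.94. Of 18 fast sarcomere genes all were measured, 13 above and 5 below 0, none past 2-fold, median 0.06. Mybph stood at 0.80 (0.40 to 1.21). With 4 or more UMIs as the rule it alone of the 18 was past 2-fold, higher at 1.07 (0.51 to 1.65), beside 1.49% of all genes. With 1 or more as the rule the troponin gene Tnnc2 stood at 0.48 (0.11 to 0.86). Of 21 glycolysis genes 19 were measured, median 0.00, with Gys1, the muscle glycogen synthase, lowest at -0.42 (-0.60 to -0.24).

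Members of the other lists were within 2-fold with 1 or more Sorcs1 UMIs as the rule. Calcium handling had 19 of 22 genes measured, median 0.05, and the neuromuscular junction 7 of 14, median 0.09, with Musk at 0.22 (0.12 to 0.33). Of 10 myotendinous junction genes 4 were measured, with Adamts20 at 0.77 (0.20 to 1.36) and Lama2 at -0.71 (-0.91 to -0.51), median 0.03. Immediate early and stress genes had 5 of 23 measured, median 0.07, atrophy genes 11 of 18, median 0.02, and circadian clock genes 18 of 19, median -0.01. In these 6 lists 0 genes were past 2-fold, but with 4 or more UMIs as the rule Ncam1 at -4.48, Lama2 at -1.97, Utrn at -1.49, Adamts20 at 1.36 and Per1 at 1.04 were, beside 1.49% of all genes higher and 1.31% lower. Limb position genes had 5 of 29 measured, median -0.19, with Tbx15 at 0.37 (0.26 to 0.48), and sex-linked genes 4 of 6, median -0.03. Of 89 genes within 5 Mb of Sorcs1, 28 were measured, 15 above and 13 below 0, median 0.01. None of these 3 lists had a gene past 2-fold. Between muscles, in Myh4-led nuclei, 47 of the 89 neighbours had 50 or more UMIs, with a median log2 ratio of -0.28 against -0.20 over all genes. Rbm20, a splicing regulator of titin, was past 2-fold higher in gastrocnemius, at 2.93 (18876 against 2776 UMIs), as were 1.57% of genes. Nt5c2 was past 2-fold lower, at -1.18 (192 against 489 UMIs), as were 7%.

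Markers of other cell types were summed on both sides of the split, and their part in the differences was not tested. Summed mesenchymal markers had 75.3 CPM in Sorcs1-positive and 72.2 CPM in Sorcs1-negative nuclei, with 9 and 7 of 9 genes detected, and Col1a1 and Lum at 0 in Sorcs1-negative nuclei. Summed macrophage markers had 20.9 and 13.6 CPM, with Lyve1 at 0 on both sides, pericyte markers 400.3 and 397 CPM, of which Abcc9 alone gave 394 and 387 CPM, with Kcnj8 at 0 on both sides, and smooth muscle markers 2.09 and 3.14 CPM. Vascular endothelial markers had 17.8 CPM in Sorcs1-positive and 9.42 CPM in Sorcs1-negative nuclei, from 34 and 18 UMIs, lymphatic markers 1.05 and 5.23 CPM, muscle stem cell markers 6.80 and 9.42 CPM, and tenocyte markers 6.28 and 4.19 CPM. Myonuclear markers had 76922 and 79102 CPM. Myotendinous junction markers had 316 and 414 CPM and neuromuscular junction markers 884 and 768 CPM, of which Musk gave 847 and 725 CPM. The median doublet score was 0.0753 in Sorcs1-positive and 0.0847 in Sorcs1-negative nuclei. With 4 or more UMIs as the rule, myotendinous junction markers had 228 CPM in Sorcs1-positive and 441 CPM in Sorcs1-negative nuclei. Neuromuscular junction markers then had 917 and 770 CPM, with 3 and 6 of 7 genes detected.

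Several genes higher in Sorcs1-positive gastrocnemius nuclei also marked Myh4-led plantaris nuclei with few Sorcs1 UMIs. Plantaris cluster 6, with Ryr3, Smoc1 and Pld5 among its leading genes, had 184 CPM of Man1a, 121 CPM of Naaladl2 and 3999 CPM of Ctnna3 in its Myh4-led nuclei, against 55.9, 25.2 and 1117 CPM in the other Myh4-led nuclei of plantaris. The cluster was drawn with these genes, so the differences describe it. Its 1161 plantaris nuclei had 23 Sorcs1 UMIs, 17 of them in 1 nucleus, or 4.83 CPM.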

How the data were processed

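Nuclei of gastrocnemius and plantaris were sequenced with 1 library per muscle. The authors deposited whole-number UMI counts per gene and nucleus, with a table giving each barcode's library; Cell Ranger 6.0.1 and the mm10 build are named per the submitters' processing notes. How intronic and antisense reads were counted, and how nuclei were called, is not given in the sources used here.

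The filter on nuclei asked for at least 200 detected genes and a mitochondrial share below 5%. Doublets were scored per library with scrublet in scanpy 1.11.5, which marked 0.0271% of gastrocnemius and 0.0109% of plantaris nuclei, under the 0.5% at which it is taken not to have worked. Both libraries were clustered together (2000 variable genes, 30 components, 15 neighbours, leidenalg 0.10.2 at resolution 1 and seed 0) with no library correction. Clusters were named from marker lists, with 3 or more markers needed, and a difference from the study may come from names rebuilt this way. Myonuclei were grouped by leading Myh transcript, leaving out ties.

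UMIs were summed per class and library. CPM carry exact Poisson intervals, shares exact Clopper-Pearson intervals, and log2 ratios exact conditional binomial intervals (scipy 1.17.1), which were tested on simulated data. Free RNA and PCR are not covered by them. Each Sorcs1-positive nucleus was matched without replacement to 1 Sorcs1-negative nucleus of closest total, Sorcs1 left out of the total. Genes with 50 or more UMIs over both sides were compared. A count of 0 was set to 3 in ratios. "Past 2-fold" means the ratio itself. The text names the 12 genes furthest up and down by the interval bound nearest 0, 1 of each 12 not reported here, the members with large ratios of 16 gene lists, and, beyond that rule, genes furthest apart with 4 or more Sorcs1 UMIs. Members, lists and comparisons were chosen with earlier results of these data known. Gene positions come from GENCODE M21 and promoters from a RefSeq table in which Sorcs1, Sorcs3 and Sorl1 were matched. The alternatives tried cover scaling, summing, thinning, filters, doublets, junction nuclei, the Myh rule, the Sorcs1 rule and matching within clusters.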

Additional observations from a re-analysis of the deposited data

Results flagged for a closer look

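Sorcs2 and Sorl1 were each higher in gastrocnemius in mesenchymal progenitors and lower in gastrocnemius in Myh4-led nuclei, which drew attention because the muscles' order turned round between classes. The log2 ratio of Sorcs2, gastrocnemius over plantaris, was 0.72 (0.56 to 0.88) in mesenchymal progenitors and -0.47 (-0.86 to -0.10) in Myh4-led nuclei. That of Sorl1 was 0.48 (0.18 to 0.78) in mesenchymal progenitors and -1.04 (-1.15 to -0.94) in Myh4-led nuclei. With libraries scaled to put the median gene at 0, Sorcs2 stood at 0.80 in mesenchymal progenitors and -0.28 in Myh4-led nuclei, a shift that brings 0 into the Myh4-led interval. Among progenitor clusters Sorl1 was higher in gastrocnemius in cluster 2 (129 against 77.2 CPM). It was lower in gastrocnemius in cluster 8 (17.4 against 39.7 CPM, from 9 and 42 UMIs) and cluster 14 (8.77 against 60.1 CPM, from 1 and 26 UMIs). With 1 library per muscle the differences between classes were not tested. Myh4-led nuclei held 97 Sorcs2 UMIs in gastrocnemius and 151 in plantaris, and what part free RNA had in them was not tested.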

How the results depend on the processing

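No paired analysis was possible because each muscle has 1 library and nothing in the labels ties a sample of one muscle to one of the other. The Sorcs1 log2 ratio of gastrocnemius over plantaris in Myh4-led nuclei, 6.11, stayed between 6.09 and 6.30 under another scaling, under averaging per nucleus, without the filter on nuclei, without the top 5% of doublet scores and without junction clusters. It was 6.58 with nuclei thinned to 1000 UMIs and 6.93 when Myh4 had to give 80% of at least 10 Myh UMIs. The share of Myh4-led gastrocnemius nuclei with a Sorcs1 UMI, 12.2%, was 8.18% after thinning, which lowers depth by construction, and 12.3 to 13.1% under the other settings. The log2 ratio of myonuclei over non-muscle nuclei, 1.51, was 1.91 with median-ratio scaling and 2.22 without mural nuclei, a setting added after the data were seen. The 64 genes past 2-fold between Sorcs1-positive and Sorcs1-negative nuclei numbered 58 to 62 without high doublet scores, without junction clusters or with the stricter Myh rule. They numbered 267 of 8759 genes against all unmatched negative nuclei. With nuclei thinned to equal depth, and 362 positive set against all 4062 negative ones without matching, they numbered 410 of 5972. With 2 or more Sorcs1 UMIs as the rule they numbered 108 of 4537, and with 4 or more 107 of 3829, the last also added later. With 20 or more UMIs per gene the count was 307 and with 200 or more it was 14, by the number of genes that pass the filter. Matching within the same cluster as well left 19 of 5575 genes. Since the clusters were drawn with these genes, that match removes part of the contrast by construction. The cause of the other moves was not tested. All 22 named genes kept their direction under the 8 settings tried, though within the same cluster their ratios were smaller, such as 1.27 for Man1a and -0.66 for Esrrg. Of 24 values for the other members, 21 kept direction on means per nucleus, 22 after thinning and 22 without high doublet scores. With median-ratio scaling 23 kept it, as did 23 without the filter on nuclei. Sort1 in Myh1-led nuclei, from 9 and 103 UMIs, was among those that turned, at -0.61 on summed counts and 0.41 on means per nucleus. Depth limits Sorcs3, Myh7-led nuclei and the small non-muscle classes, and intervals cover no variation between animals.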

Other observations

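Of the 14 plantaris nuclei with 4 or more Sorcs1 UMIs, 8 were mural, 4 lay in unnamed clusters and 2 were Myh4-led. Some of the mural and unnamed nuclei also held muscle transcripts, such as a cluster 7 nucleus with 53 Mybpc1 UMIs among 29396 UMIs. Whether such nuclei were doublets or held free RNA was not tested. The Myh4-led nucleus with 17 Sorcs1 UMIs among 6163 UMIs had 1 Mybpc1 UMI, and the one with 12 Sorcs1 UMIs among 5307 UMIs had 14. Cluster 20, the small cluster with slow-fibre markers, held 30 Sorcs1 UMIs in its 30 gastrocnemius nuclei, 29 of them in 1 nucleus. Its 7 Myh4-led nuclei held all 30.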
